A study of Homo sapiens with 18 samples.

Results

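Among 57905 annotated human genes counted in BE(2)-m17 neuroblastoma cells, 2 loci without a gene symbol of their own were followed here. They were ENSG00000237954, which GENCODE lists under the clone name AL445218.1, and ENSG00000261526, listed as AC012615.1. Both were chosen by their counts, which differed between ABCC1-overexpressing cells and empty vector control cells in each of 3 experiments. AL445218.1 was lower and AC012615.1 was higher with ABCC1. The difference between the cell lines therefore chose these loci, and it is given below as a description, without a test.

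BE(2)-m17 is an established human neuroblastoma line, and ABCC1 is a membrane transporter that exports glutathione conjugates and many drugs. All cells carried pSBbi-Hyg-APP, a Sleeping Beauty vector with the amyloid precursor protein and hygromycin resistance. ABCC1-overexpressing cells (ABCC1) also carried pSBbi-Pur-ABCC1(WT), and the empty vector control cells (Puro) carried pSBbi-Pur without an insert, so both lines had the puromycin resistance gene. RNA was taken on the fourth day after plating, and each experiment (RNA1, RNA2 and RNA3) held 3 libraries of each line, 18 in all. Per the study's methods, the repeats of the first experiment used cells from frozen stock and a newly transfected line, but the labels do not tell which of RNA2 and RNA3 is which. They also do not say whether a line was 1 clone or which promoter drives the inserts.

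The libraries held 8866994 to 57937653 assigned read pairs, with RNA1 the deepest (27433393 to 57937653) and RNA3 the shallowest (8866994 to 13332413). The vector's ABCC1 sequence had 0 to 15 counts in the Puro libraries and 51035 to 594404 in the ABCC1 libraries, as labelled. Of 9 adrenergic neuroblastoma markers, 8 or 9 exceeded a normalised read count (CPM, counts scaled to one common library size) of 1 in every library of each group, with MYCN highest per kilobase. Per the study's methods, RNA1 libraries used a kit for polyadenylated mRNA, whereas RNA2 and RNA3 used a stranded total RNA kit. The labels of RNA1 name both kits. Levels in RNA1 are therefore not compared with the others.

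Long intergenic noncoding RNAs (lincRNAs) are transcripts without a long open reading frame that lie between protein-coding genes. Many are spliced and polyadenylated like mRNAs, and as a class they are present at lower levels and in fewer tissues than mRNAs. Antisense transcripts run on the opposite strand of another gene, so a counting method that ignores strand cannot separate the 2 where their exons overlap. No function of AL445218.1 or AC012615.1 is assumed here.

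AL445218.1 lay on chromosome 1 at chr1:95821785-95846556 (GRCh37, minus strand). Its span of 24772 bases held 4 exons with 879 exon bases, none of them shared with another gene. AC012615.1 was a single exon of 1288 bases at chr19:1874881-1876168 (GRCh37, minus strand). Of these, 581 bases (45.1%) were shared with the exons of AC012615.5, an antisense lincRNA at chr19:1875015-1875991 on the plus strand, and 707 bases were its own. In a newer annotation, RefSeq on GRCh38, the span of KLF16 contains all of AC012615.1 on the same strand, and a noncoding RNA gene named LOC107985420 overlaps part of AL445218.1.

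The transcripts were read from GENCODE v29, which is built on GRCh38, so their positions below count from base 1 of the transcript. AL445218.1 has 2 transcripts there, of 803 and 845 bases, with 47.2% and 46.4% G and C. Shown are the exon that only the longer one holds (exon 2 of the locus, 76 bases) and the last exon of the shorter one (249 bases). The transcripts also differ in the length of the first exon (369 bases in the shorter, 341 in the longer). The last exon of the longer one has 243 bases. No letters are capitalised.
AL445218.1 exon 2: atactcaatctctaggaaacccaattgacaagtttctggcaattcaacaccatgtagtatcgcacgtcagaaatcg
AL445218.1 last exon: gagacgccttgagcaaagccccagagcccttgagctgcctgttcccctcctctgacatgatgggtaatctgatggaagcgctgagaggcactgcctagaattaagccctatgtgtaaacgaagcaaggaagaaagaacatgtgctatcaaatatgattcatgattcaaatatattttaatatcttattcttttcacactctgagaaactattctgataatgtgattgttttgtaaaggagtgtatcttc

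AC012615.1 has 1 transcript of 1299 bases with 55.4% G and C, at or above 89.4% of the 14379 lincRNA transcripts in that annotation. Its first 300 and last 200 bases are shown because the counter by default leaves out read pairs that fit 2 genes, so that its counts should come mostly from outside the bases it shares with AC012615.5. Where the assigned reads lie was not tested. Capitals mark the shared bases, which lie at positions 178 to 564 and 961 to 1154.
AC012615.1 first 300 bases: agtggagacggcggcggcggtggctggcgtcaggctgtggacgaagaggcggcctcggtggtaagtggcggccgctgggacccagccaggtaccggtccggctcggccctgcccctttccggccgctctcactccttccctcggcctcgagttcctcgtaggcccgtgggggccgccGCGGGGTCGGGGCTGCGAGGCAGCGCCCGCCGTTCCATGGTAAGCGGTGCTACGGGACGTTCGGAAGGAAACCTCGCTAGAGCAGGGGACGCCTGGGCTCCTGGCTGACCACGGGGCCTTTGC
AC012615.1 last 200 bases: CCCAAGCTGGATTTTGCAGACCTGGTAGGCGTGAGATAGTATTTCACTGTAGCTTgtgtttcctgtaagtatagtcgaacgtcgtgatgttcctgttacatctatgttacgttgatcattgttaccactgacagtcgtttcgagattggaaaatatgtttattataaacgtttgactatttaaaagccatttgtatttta

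The longest open reading frame had 45 codons in either AL445218.1 transcript and 69 codons in AC012615.1. The hexamer AATAAA, the commonest polyadenylation signal, was searched for on the transcript strand and was not in the last 60 bases of any of the 3 transcripts. Of all lincRNA transcripts, 33.6% held it there. Among stretches of 50 bases, 0% of those of AL445218.1 occurred in another annotated gene, and 38.7% of those of AC012615.1 did, all of them in AC012615.5. No near-identical copy of either locus was therefore found among the annotated transcripts.

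**Figure D1:**
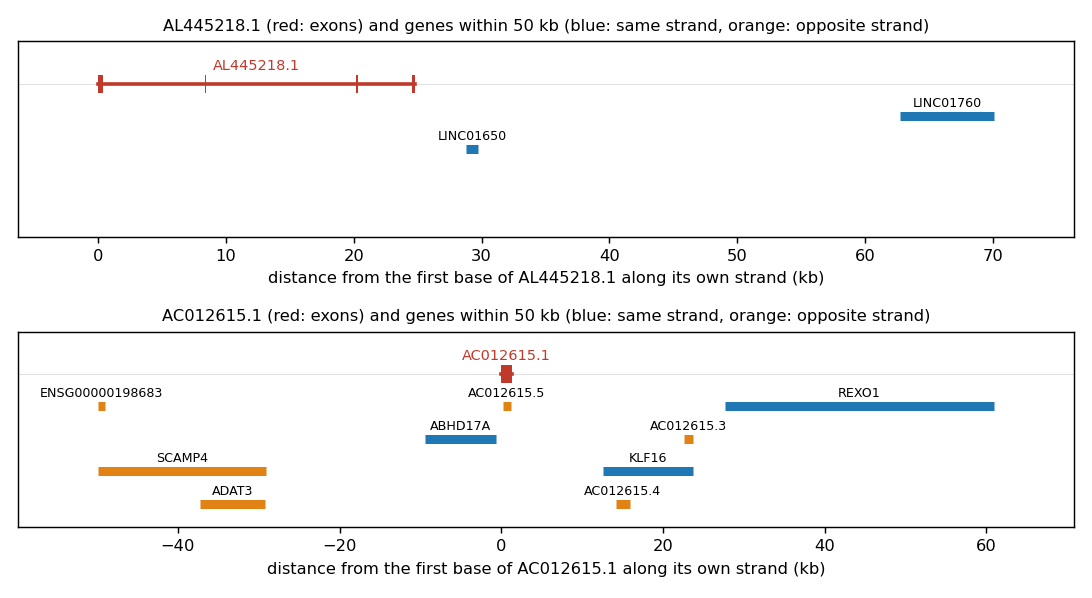
Map of both loci along their own strand, with distance from the first base of the locus in kb on the horizontal axis, exons of the locus in red, genes on the same strand in blue and genes on the opposite strand in orange. AL445218.1 has 2 genes within 50 kb and AC012615.1 has 9, one of which lies across its exon.

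AL445218.1 was the higher of the 2 loci in control cells. In RNA1 its counts were 3823, 2506 and 2880 in the Puro libraries and 1778, 1046 and 1733 in the ABCC1 libraries, which came to 87.9, 92.0 and 91.4 CPM against 31.4, 32.4 and 29.9 CPM. Scaling for depth drew the 3 libraries of each line together, and no ABCC1 library came near the lowest Puro library. The means were 90.4 ± 2.22 CPM in Puro and 31.2 ± 1.28 CPM in ABCC1 (SD, n = 3), so that ABCC1-overexpressing cells held 34.6% of the control level.

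In RNA2 the counts of AL445218.1 were 1377, 2850 and 2843 in Puro and 753, 893 and 1054 in ABCC1. These were 60.9, 95.4 and 137 CPM against 28.8, 40.9 and 34.0 CPM. The control libraries were far apart here, with the highest more than double the lowest, but the lowest was still above every ABCC1 library. Means were 97.7 ± 38.1 CPM and 34.6 ± 6.09 CPM (SD, n = 3), or 35.4% of the control level.

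RNA3 had the fewest reads, with 560, 727 and 636 counts in Puro and 181, 164 and 186 in ABCC1. The libraries stood at 51.0, 66.0 and 66.3 CPM against 15.5, 14.1 and 15.3 CPM, again without overlap. The means of 61.1 ± 8.76 and 15.0 ± 0.764 CPM (SD, n = 3) put ABCC1-overexpressing cells at 24.5% of the control level. As log2FC from edgeR, the falls were -1.53 (SE 0.05) in RNA1, -1.50 (SE 0.22) in RNA2 and -2.03 (SE 0.17) in RNA3.

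AC012615.1 moved the other way from a lower start. In RNA1 it had 364, 238 and 259 counts in Puro and 802, 444 and 731 in ABCC1, corresponding to 8.37, 8.74 and 8.22 CPM against 14.2, 13.8 and 12.6 CPM. Its smallest difference was in this experiment, where the spread was also small and the lines did not overlap. The means were 8.44 ± 0.270 and 13.5 ± 0.818 CPM (SD, n = 3), 1.60-fold higher with ABCC1.

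In RNA2 the locus had 480, 513 and 415 counts in Puro and 1284, 751 and 1311 in ABCC1. On the CPM scale the Puro libraries stood at 21.2, 17.2 and 20.0 and the ABCC1 libraries at 49.1, 34.4 and 42.3. Every ABCC1 library was above every control library. Means were 19.5 ± 2.08 and 41.9 ± 7.33 CPM (SD, n = 3), a 2.15-fold difference.

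RNA3 gave 104, 95 and 99 counts in Puro and 282, 461 and 441 in ABCC1. These were 9.46, 8.62 and 10.3 CPM against 24.1, 39.6 and 36.4 CPM. The first ABCC1 library lay below the other two and was still above all controls. The means of 9.47 ± 0.850 and 33.4 ± 8.19 CPM (SD, n = 3) differed 3.52-fold. The log2FC of AC012615.1 was 0.68 (SE 0.08), 1.11 (SE 0.16) and 1.82 (SE 0.18) in RNA1, RNA2 and RNA3.

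**Figure D2:**
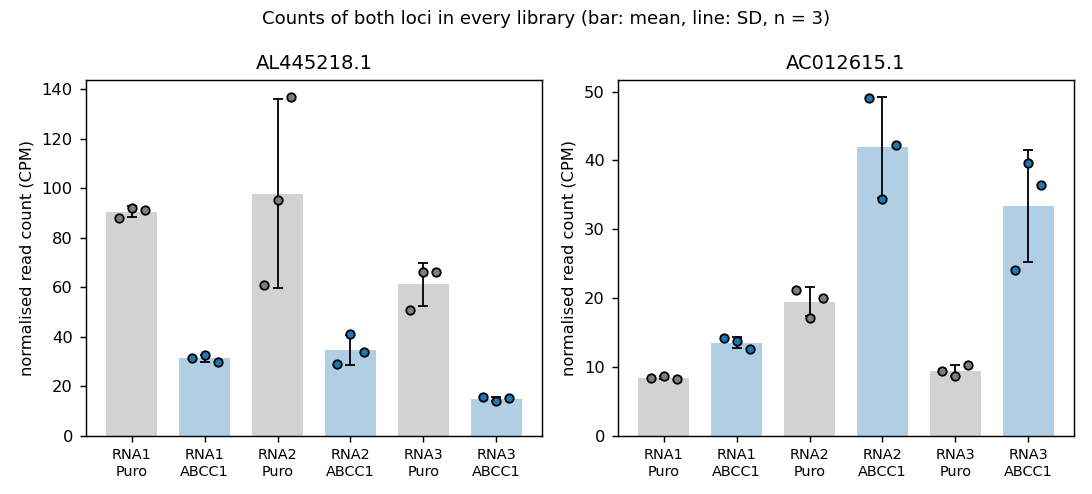
Normalised read count (CPM, scaled within each experiment) of AL445218.1 on the left and AC012615.1 on the right, with 1 point per library, bars for the group mean and lines for the SD of 3 libraries. The ABCC1 libraries of AL445218.1 lie below all Puro libraries of the same experiment (31.2 against 90.4 CPM in RNA1), and those of AC012615.1 lie above them (33.4 against 9.47 CPM in RNA3).

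How often other genes behaved this way differed widely between experiments. ABCC1 libraries all lay below the Puro libraries for 25.7%, 16.4% and 10.9% of the features tested in RNA1, RNA2 and RNA3, and all above them for 24.7%, 13.5% and 8.59%. At an adjusted p of at most 0.05 (quasi-likelihood test of edgeR, Benjamini-Hochberg adjustment over all features), 37.6% of 16995 features differed in RNA1, 1.70% of 34091 in RNA2 and 2.80% of 36509 in RNA3. Of 16689 features tested in all 3 experiments, 23 (0.138%) were called lower in each and 203 (1.22%) higher in each. By this choice AL445218.1 belongs to the 23 and AC012615.1 to the 203.

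These numbers were not stable. The 23 became 16 to 54 and the 203 became 216 to 563 with DESeq2, RLE scaling, another filter or a replicate block. Leaving out 1 library gave 1 to 32 lower and 4 to 281 higher. The lowest numbers came without RNA2 Puro replicate 3 (1 and 4), where neither locus was in its set, and without RNA2 ABCC1 replicate 2 (3 and 14). Genes listed as lincRNA or antisense made up 2 of the 23 (8.70%) and 6 of the 203 (2.96%), beside 1531 (9.17%) of the 16689 features.

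By level per kilobase of exon, AL445218.1 was among the most abundant transcripts of control cells. It stood at 103 ± 2.52, 111 ± 43.3 and 69.5 ± 9.96 CPM per kilobase in Puro (SD, n = 3), above 98.2%, 98.9% and 98.8% of the features tested in RNA1, RNA2 and RNA3. Among lincRNAs it ranked 1 of 742, 15 of 4063 and 17 of 4694. With ABCC1 it stood at 35.5 ± 1.46, 39.3 ± 6.93 and 17.03 ± 0.869 CPM per kilobase and was still above 92.8%, 97.2% and 93.5% of features.

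AC012615.1 stood at 6.55 ± 0.209, 15.1 ± 1.62 and 7.35 ± 0.660 CPM per kilobase in Puro, above 60.8%, 93.4% and 83.5% of features. With ABCC1 it was at 10.5 ± 0.635, 32.5 ± 5.69 and 25.9 ± 6.36 CPM per kilobase (SD, n = 3). If the shared bases yielded no assigned reads, its level per unshared kilobase was higher, at 13.4 ± 1.20 in RNA3 Puro and 47.2 ± 11.6 in RNA3 ABCC1. The order of the 2 loci per kilobase of exon differed between lines in RNA3: AL445218.1 was the higher in each Puro library (58.0 to 75.4 against 6.69 to 8.01), and AC012615.1 in each ABCC1 library (18.7 to 30.8 against 16.03 to 17.6). In RNA2 ABCC1 libraries the ranges overlapped, at 32.7 to 46.5 for AL445218.1 and 26.7 to 38.1 for AC012615.1. Per unshared kilobase AC012615.1 was at 48.7 to 69.4 there, above AL445218.1 in every library, so the order in RNA2 ABCC1 cells depends on which bases are counted. The order in RNA3 and in RNA2 Puro cells did not, with AC012615.1 at 34.1 to 56.02 per unshared kilobase in RNA3 ABCC1, 12.2 to 14.6 in RNA3 Puro and 24.3 to 30.0 in RNA2 Puro libraries.

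The total RNA libraries also held reads in genes that neuroblastoma cells should hardly use. Over 350 olfactory receptor genes, the level was 0.580 ± 0.0881 CPM per kilobase in Puro and 0.304 ± 0.149 in ABCC1 in RNA2, and 1.58 ± 0.0906 and 1.26 ± 0.157 in RNA3 (SD, n = 3). In RNA1 it was 0.00511 and 0.00411 CPM per kilobase. Every ABCC1 library of RNA2 and RNA3 was below the Puro libraries of its experiment in this level. It came to 0.378 to 1.11% of the AL445218.1 level in RNA2 libraries and 1.97 to 8.16% in RNA3 libraries. For AC012615.1 it reached 0.368 to 4.03% in RNA2 and 3.85 to 22.1% in RNA3, the highest shares being those of the RNA3 Puro libraries. Subtracting the olfactory receptor level per kilobase of exon from both loci was among the alternatives. With it the log2FC of AC012615.1 in RNA3 was 2.10, beside 1.82 without. The part of such reads in the differences between lines was not tested.

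**Figure D3:**
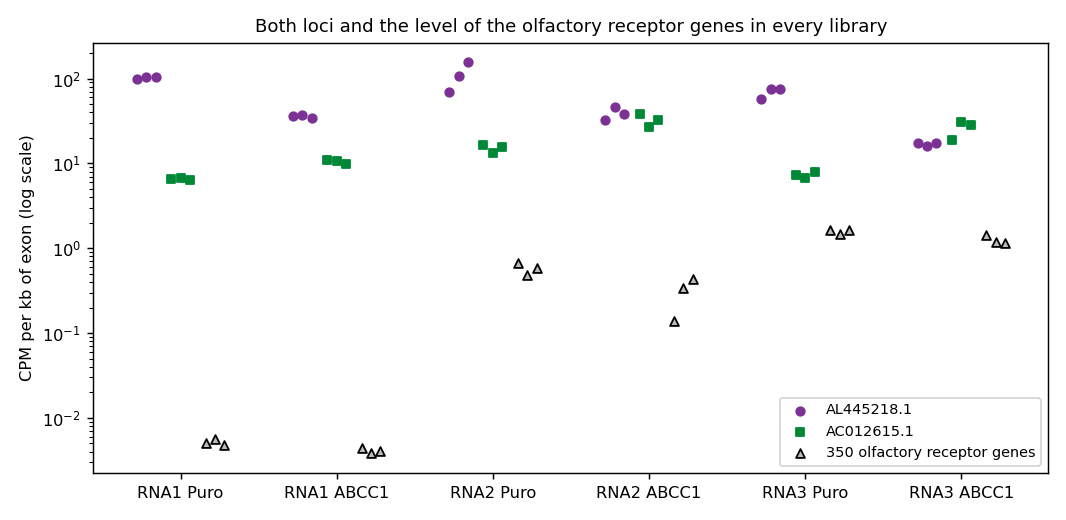
Level per kilobase of exon (CPM per kb, log scale) in every library for AL445218.1 (circles), AC012615.1 (squares) and 350 olfactory receptor genes together (triangles). The olfactory receptor level is 0.00511 in RNA1 Puro (another kit, per the study's methods), 0.580 in RNA2 Puro and 1.58 in RNA3 Puro. Both loci lie above it in each of the 18 libraries.

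The neighbouring genes were not used to choose the loci, so they could be tested. Within 50 kb of AL445218.1 lie 2 lincRNA genes on the same strand, both beyond its last exon. LINC01650 is 3975 bases away and LINC01760 is 37966 bases away. On the other side the nearest gene is LINC01761, on the plus strand at a distance of 93737 bases. In RNA1, 1 of 1 tested gene within 50 kb was called lower, where 19.7% of all features were. In RNA2 and RNA3 neither of 2 was called, where 0.458% and 0.767% of features were called lower by edgeR. At an unadjusted p under 0.05, 1 of 2 was lower in RNA2 and 0 of 2 in RNA3, beside 10.7% and 7.63% of features. DESeq2 called 0 lower in both, beside 1.61% and 0.457%, and 0 were higher by any of these rules.

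LINC01650 had 73, 57 and 50 counts in RNA1 Puro and 32, 18 and 46 in RNA1 ABCC1, or 1.79 CPM against 0.639 CPM on average. These ABCC1 libraries were all below the controls. Its log2FC was -1.44 (SE 0.20, adjusted p = 2.71e-04), close in size to that of AL445218.1. In RNA2 it had 55, 90 and 41 counts against 15, 32 and 25, which is 2.47 CPM against 0.948 CPM. The lines again did not overlap in CPM, yet the log2FC of -1.39 (SE 0.52) did not pass the test (adjusted p = 0.134). In RNA3, with 43, 25 and 44 counts against 28, 48 and 34, the lines overlapped and the log2FC was -0.20 (SE 0.35, adjusted p = 0.844). The difference between the RNA3 and RNA2 log2FC of LINC01650 was 1.23 (SE 0.62, adjusted p = 0.787), which did not pass, where 0.00724% of all features did.

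LINC01760 had 1 to 37 counts in every library of RNA2 and RNA3 and was too low to be tested in RNA1. Its log2FC was -0.56 (SE 0.77, adjusted p = 0.693) in RNA2 and -0.15 (SE 0.60, adjusted p = 0.938) in RNA3. Neither value passed, and both had wide errors. These neighbours were closer than AL445218.1 to the olfactory receptor level (0.580 in Puro and 0.304 in ABCC1 in RNA2, 1.58 and 1.26 in RNA3). Per kilobase LINC01650 was at 4.11 and 1.58 in RNA2 and 5.96 and 5.16 in RNA3, and LINC01760 at 2.98 and 1.99 in RNA2 and 3.13 and 2.83 in RNA3. The part of such reads in their log2FC was not tested. LINC01761 had 93 to 123 counts in RNA1 Puro and 63 to 103 in RNA1 ABCC1, with a log2FC of -0.94 (SE 0.16, adjusted p = 0.00120). In RNA2 it stood at 4.82 CPM in Puro and 3.67 CPM in ABCC1, the lines overlapped, and it was not called. Its log2FC there ranged from -0.59 to -0.18 under the alternatives, without a call. In RNA3 it was higher with ABCC1, at 36 to 66 counts against 88 to 130 and a log2FC of 0.89 (SE 0.27, adjusted p = 0.0485). That second call was lost without Puro replicate 2 (0.69), Puro replicate 3 (0.92), ABCC1 replicate 2 (0.98) or ABCC1 replicate 3 (0.70). LINC01761 was near the olfactory receptor level in RNA3, at 1.69 CPM per kilobase against 1.58 in Puro and 3.12 against 1.26 in ABCC1.

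In a wider window of 500 kb around AL445218.1, 7 of 11 tested genes were called lower and 1 higher in RNA1, where 19.7% of all features were called lower and 17.9% higher. In RNA2 edgeR called 0 of 14, where it called 1.25% of features higher and 0.458% lower. DESeq2 also called 0, where it called 5.89% higher and 1.61% lower, although 4 were lower at an unadjusted p under 0.05, as were 10.7% of all features. In RNA3 edgeR called 2 of 16 higher, where 2.03% of features were, and 0 lower, DESeq2 called 0 (3.82% of features higher and 0.457% lower), and at an unadjusted p under 0.05 there were also 2 higher and 0 lower, beside 7.58% and 7.63% of features. The median log2FC of those genes was -0.59 in RNA1, -0.39 in RNA2 and -0.13 in RNA3, beside medians over all features of 0.01, -0.19 and -0.09.

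AC012615.1 lies in a gene-dense stretch of chromosome 19 with 9 annotated genes within 50 kb. The nearest on one side is ABHD17A, whose 3' end is 641 bases upstream on the same strand and whose product removes palmitate from proteins. On the other side KLF16, a zinc finger transcription factor of the Kruppel-like family, begins 11314 bases downstream. REXO1 (a putative RNA exonuclease), SCAMP4 (a secretory carrier membrane protein) and ADAT3 (a subunit of the adenosine deaminase that edits tRNAs) are the other neighbours listed as protein-coding.

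Of the other neighbours, AC012615.5, AC012615.3 and ENSG00000198683, whose type was not matched, were listed at 0 in all 18 libraries. All or nearly all of their exon bases are shared with another gene (100%, 99.8% and 100%). The counter by default leaves out read pairs that fit 2 genes, so a listed 0 there says nothing about transcription. The remaining one, AC012615.4, had 0 counts in every RNA1 Puro library and 5 to 13 in the RNA1 ABCC1 libraries, too few to be tested. It had a log2FC of -1.81 (SE 0.73, adjusted p = 0.161) in RNA2 and 0.43 (SE 0.44, adjusted p = 0.703) in RNA3. Its levels of 2.14 and 0.601 CPM per kilobase in RNA2 Puro and ABCC1, and 2.88 and 3.87 in RNA3, were also near the olfactory receptor level, whose part was not tested.

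Calls among these neighbours were few and all upward. In RNA1, 1 of 5 tested was called higher, where 17.9% of all features were. In RNA2 it was 1 of 6 against 1.25%, and in RNA3 2 of 6 against 2.03%. DESeq2 called 1 higher in each experiment, beside 15.0%, 5.89% and 3.82% of features in RNA1, RNA2 and RNA3. At an unadjusted p under 0.05, 1, 3 and 3 were higher, beside 23.0%, 10.6% and 7.58%. By edgeR and by DESeq2, 0 were called lower in each experiment. At an unadjusted p under 0.05, 0, 1 and 0 were lower, beside 23.7%, 10.7% and 7.63% of features.

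KLF16 was the 1 neighbour of AC012615.1 called in each experiment. It had 1838, 892 and 1041 counts in RNA1 Puro and 2653, 1475 and 3575 in RNA1 ABCC1, or 36.0 against 51.4 CPM on average. In RNA2 the counts were 270, 353 and 262 against 521, 419 and 567, and in RNA3 169, 253 and 155 against 298, 357 and 339. The ABCC1 libraries were above the Puro libraries in CPM each time, without overlap. Its log2FC was 0.51 (SE 0.13, adjusted p = 0.0135), 0.66 (SE 0.16, adjusted p = 0.0420) and 0.62 (SE 0.17, adjusted p = 0.0205) in RNA1, RNA2 and RNA3. These were smaller than those of AC012615.1 (0.68, 1.11 and 1.82), a difference that was not tested. Since the RefSeq span of KLF16 contains AC012615.1, KLF16 may not be an independent neighbour, which was not tested either. Per kilobase KLF16 was at 4.10 and 6.48 in RNA2 and 6.15 and 9.49 in RNA3, above the olfactory receptor level. Of the KLF16 exon bases, 16.3% are shared with AC012615.3.

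The KLF16 calls were not firm. In RNA1 the call was lost with no filter on low counts (log2FC 0.52, adjusted p = 0.157) and without Puro replicate 2 (0.45), Puro replicate 3 (0.46) or ABCC1 replicate 3 (0.35). In RNA2 it was lost with a minimum of 10 counts in every library (0.54, adjusted p = 0.0536) and without Puro replicate 1 (0.67), 2 (0.65) or 3 (0.70) or ABCC1 replicate 1 (0.64) or 2 (0.67). In RNA3 it was lost without Puro replicate 1 (0.55) or 3 (0.58) or ABCC1 replicate 2 (0.56) or 3 (0.63). The direction was the same in all of these.

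ADAT3 was higher with ABCC1 in RNA3, with 77, 36 and 39 counts in Puro and 113, 165 and 100 in ABCC1. Its log2FC there was 1.16 (SE 0.26, adjusted p = 0.00282), and the lines did not overlap in CPM. The call was lost without ABCC1 replicate 2, where the log2FC was 0.91 (adjusted p = 0.113). In RNA2 the log2FC was 0.73 (SE 0.32, adjusted p = 0.197) and in RNA1 -0.01 (SE 0.16, adjusted p = 0.969). In RNA3 ADAT3 was at 2.14 CPM per kilobase in Puro and 4.79 in ABCC1, beside olfactory receptor levels of 1.58 and 1.26, whose part in the difference was not tested. Exon sharing with SCAMP4 covers 35.3% of its exon bases.

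ABHD17A, the gene that ends next to AC012615.1, did not pass the test in any experiment. Its log2FC was 0.03 (SE 0.08, adjusted p = 0.773), 0.26 (SE 0.17, adjusted p = 0.370) and 0.36 (SE 0.17, adjusted p = 0.301) in RNA1, RNA2 and RNA3. Leaving out Puro replicate 2 brought a call in RNA3 (0.48, adjusted p = 0.0175). REXO1 gave -0.04 (SE 0.09), 0.39 (SE 0.16) and 0.26 (SE 0.18), with adjusted p from 0.173 to 0.752. SCAMP4 gave -0.11 (SE 0.10), 0.14 (SE 0.17) and -0.06 (SE 0.16), with adjusted p from 0.420 to 0.909. In the wider window of 500 kb, edgeR called 4 higher and 3 lower of 37 in RNA1, where 17.9% and 19.7% of all features were. It called 1 higher of 51 in RNA2 (1.25% of features) and 2 higher of 52 in RNA3 (2.03%), with 0 lower in both. DESeq2 called 3 higher and 4 lower in RNA1, where it called 15.0% and 17.6% of all features. It called 3 higher in RNA2 and 1 higher in RNA3, beside 5.89% and 3.82% of all features, and 0 lower in both. At an unadjusted p under 0.05 the window had 8 higher and 2 lower in RNA2, where 10.6% and 10.7% of features were, and 4 higher and 3 lower in RNA3, where 7.58% and 7.63% were. In RNA1 it had 5 higher and 6 lower, beside 23.0% and 23.7%.

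**Figure D4:**
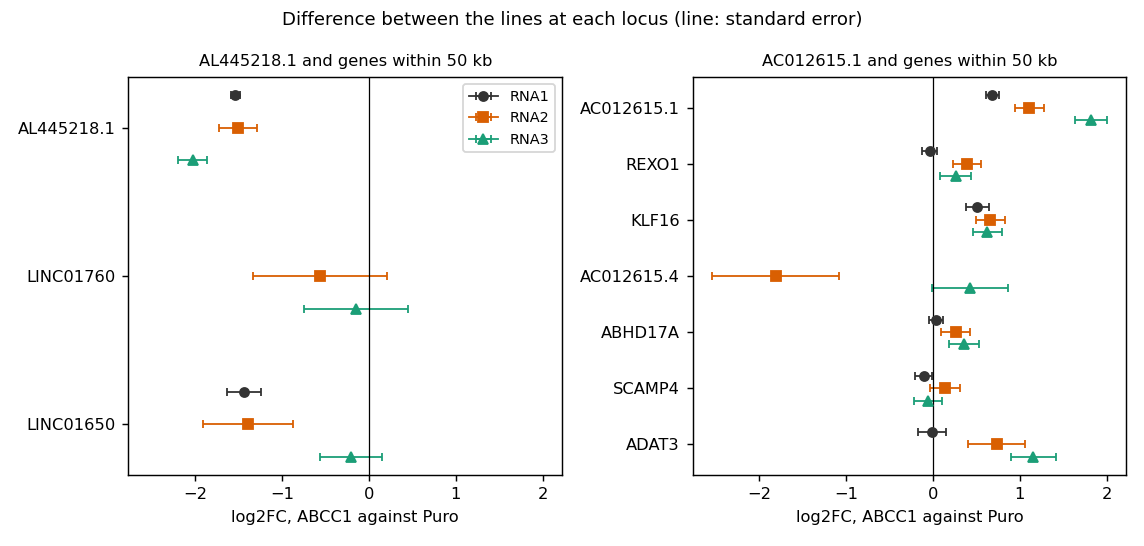
The log2FC of ABCC1 against Puro (horizontal axis, points with standard error) for each locus and its tested neighbours within 50 kb, by experiment (circles RNA1, squares RNA2, triangles RNA3). On the left LINC01650 lies at -1.44 and -1.39 in RNA1 and RNA2 and at -0.20 in RNA3. On the right KLF16 lies between 0.51 and 0.66 in each experiment, below AC012615.1.

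The level of both loci between the experiments was also open to a test, since the choice did not use it. RNA2 and RNA3 share the library kit, and the batch of cells, frozen storage, the transfection and its vector integrations, and the sequencing run cannot be told apart between them. In one fit of 12 libraries, AL445218.1 was lower in RNA3 than in RNA2 in both lines. The log2FC was -1.44 (SE 0.21, adjusted p = 1.52e-06) in Puro, where 12.2% of 41448 features were called lower and 1.81% higher, and -1.93 (SE 0.22, adjusted p = 1.42e-08) in ABCC1, where 15.9% were called lower and 18.5% higher.

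AC012615.1 was lower in RNA3 as well, by -1.80 (SE 0.20, adjusted p = 6.53e-09) in Puro and -1.05 (SE 0.18, adjusted p = 2.44e-05) in ABCC1. The size of these falls depended on how libraries were scaled. The median over all features was 0.22 in Puro and 0.54 in ABCC1 under the scaling used, and 0.93 and 1.29 when only library totals were used. With totals alone AL445218.1 fell by 0.69 in Puro and by 1.17 in ABCC1, both still called. AC012615.1 then fell by 1.08 in Puro, still called, and gave -0.31 in ABCC1 with the call lost (adjusted p = 0.104). ABHD17A, next to AC012615.1, was lower in RNA3 as well, with -0.85 (SE 0.18, adjusted p = 4.73e-04) in Puro and -0.72 (SE 0.18, adjusted p = 0.00199) in ABCC1. With totals alone that call was lost in both lines, at -0.14 (adjusted p = 0.344) and 0.036 (adjusted p = 0.797), whereas RLE scaling gave -0.94 (adjusted p = 0.00152) and -0.93 (adjusted p = 0.00109). KLF16 was not called between RNA3 and RNA2, with -0.17 (adjusted p = 0.596) in Puro and -0.18 (adjusted p = 0.438) in ABCC1, whereas totals alone called it higher in RNA3 by 0.53 (adjusted p = 0.0132) and 0.58 (adjusted p = 0.00353). AC012615.4 was called higher in RNA3 in ABCC1 (1.93, SE 0.59, adjusted p = 0.0121) and was not called in Puro (-0.33, SE 0.56, adjusted p = 0.756). In ABCC1 its call was lost without RNA2 ABCC1 replicate 1 (1.47, adjusted p = 0.0530) or RNA3 ABCC1 replicate 2 (1.66, adjusted p = 0.0675), and totals alone gave 2.64. The other neighbours within 50 kb of either locus, and LINC01761, were not called under the scaling used, although some alternatives called LINC01761 and LINC01650. LINC01761 was called lower in Puro with RLE scaling (-0.91, adjusted p = 0.0391), with DESeq2 (-0.91, adjusted p = 0.0271) and without RNA2 ABCC1 replicate 1 (adjusted p = 0.0236) or 3 (adjusted p = 0.0489). LINC01650 was called higher in ABCC1 with a minimum of 10 counts (1.17, adjusted p = 0.0222) and without RNA2 ABCC1 replicate 2 (1.42, adjusted p = 0.0333). With totals alone REXO1 and SCAMP4 were called higher in both lines, by 0.62 to 0.86, and LINC01650 (1.73), LINC01761 (1.27) and ADAT3 (1.00) in ABCC1.

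The genes whose pattern over the 18 libraries was most like each locus were found by the root mean square difference of log2 CPM, centred within each experiment, over 16688 other features. The measure uses the same differences between lines that chose the loci, so a like log2FC in these genes follows from how they were picked and is no result. Likeness here says nothing of shared function, and the libraries, depth and cell lines are common to all points. For AL445218.1 the nearest was HNRNPLL, an RNA-binding regulator of splicing, at 0.268 log2 units, where the median feature was at 0.932. Its log2FC was -1.61, -1.45 and -1.39 in RNA1, RNA2 and RNA3. It was followed by FEZ1 (0.337), a kinesin adaptor in axons, and SPOCK3 (0.383), a testican proteoglycan. ENSG00000198339 (0.392) and FAIM2 (0.394), an inhibitor of Fas-mediated death, completed the list, and none of the 5 lies on chromosome 1.

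For AC012615.1 the most similar gene was CSRNP1, a nuclear protein of the cysteine-serine-rich family, at 0.169 log2 units, where the median feature was at 0.655. Its log2FC was 0.50, 1.02 and 1.47 in RNA1, RNA2 and RNA3. The lincRNA LINC02790 followed at 0.198, with 0.65, 0.92 and 1.50. The remaining members were ZNHIT2 (0.234), PCBP1-AS1 (0.235), an antisense RNA of a gene for an RNA-binding protein, and PHRF1 (0.251), a ubiquitin ligase. Their log2FC lay between 0.53 and 0.69 in RNA1 and between 1.17 and 1.34 in RNA3. None of these genes lies on chromosome 19.

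**Figure D5:**
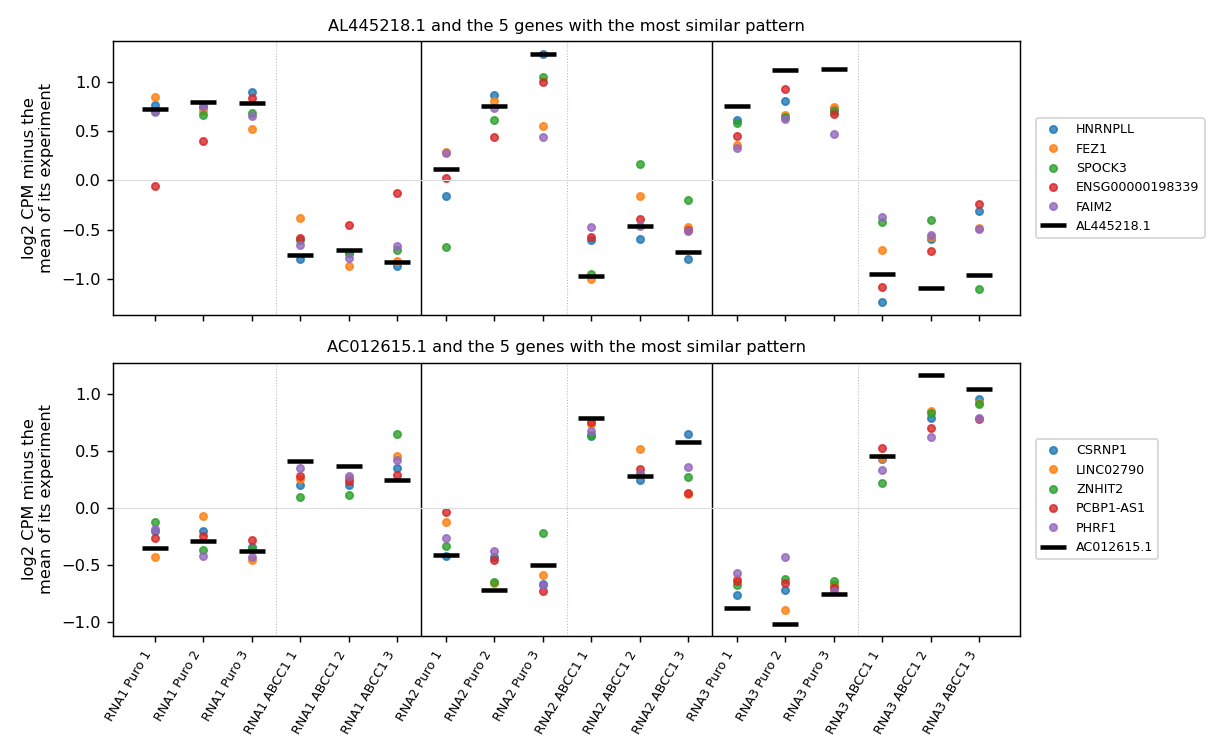
Log2 CPM minus the mean of its experiment (vertical axis) in each of the 18 libraries for AL445218.1 (top) and AC012615.1 (bottom), drawn as black bars, and for the 5 genes with the most similar pattern, drawn as points. HNRNPLL follows AL445218.1 at a root mean square difference of 0.268 and CSRNP1 follows AC012615.1 at 0.169.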

How the data were processed

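BE(2)-m17 cells were sequenced in 3 experiments with 3 libraries per line. Per the labels and the study's methods, the authors demultiplexed reads with bcl2fastq 2.18, aligned them with STAR 2.7.3a to GRCh37 with the vector sequences added, and counted read pairs per gene with featureCounts (Subread 2.0.0) over Ensembl exons. The deposited values are raw counts per gene, and no strand setting was stated, so antisense overlaps cannot be resolved. The labels of RNA1 name a TruSeq RNA kit in one field and the SMARTer total RNA kit in another.

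Counts were fitted per experiment with edgeR 4.0.16 (TMM scaling, filterByExpr with a minimum count of 10, robust quasi-likelihood test). Benjamini-Hochberg adjustment ran over all features fitted, and calls were made at an adjusted p of at most 0.05. RNA3 and RNA2 were compared in one fit of 12 libraries. CPM values use the scaling of their own experiment. DESeq2 1.42.0, RLE scaling, other filters, a replicate block and leaving out each library were the alternatives. For the 2 loci the olfactory receptor level per kilobase of exon was also subtracted, and for AC012615.1 per unshared kilobase as well. The likeness measure used a prior count of 2. The method was tested on simulated data.

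Named genes were the 2 loci, all tested neighbours within 50 kb, the nearest gene on each side, genes sharing exon bases and the 5 most similar in pattern. The 2 loci, the gene lists and the tests were chosen with earlier results of these data known. Libraries of one group differed beyond sampling noise (chi-square per degree of freedom 1.48 to 22.4), so none was treated as a duplicate. The study's methods describe weekly plating of each line, so replicates are platings of 1 line, and p-values measure the spread between them. The loci had 95 to 3823 counts per library. Over all features fitted, the common spread between replicates (biological coefficient of variation) was 5.67%, 35.3% and 19.7% in RNA1, RNA2 and RNA3. Symbols were matched for 52338 of 57905 Ensembl IDs. Spike-in controls (92) and vector sequences (6) were left out of the counts of calls.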

Additional observations from a re-analysis of the deposited data

Results flagged for a closer look

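LINC01761, the nearest gene on the far side of AL445218.1, lay opposite ways in 2 experiments. With ABCC1 it differed by -1.60 CPM in RNA1, where all 3 ABCC1 libraries were below the controls, and by 3.95 CPM in RNA3, where all 3 were above them. In RNA2 it was at 76.2% of the Puro level with ABCC1, and the lines overlapped. AC012615.4, a noncoding neighbour of AC012615.1, was 0.188 CPM higher with ABCC1 in RNA1 and differed by -0.934 CPM in RNA2, again without overlap in either. Its RNA1 counts were 0 in Puro and 5 to 13 in ABCC1, too few to be tested. Its RNA2 levels were near the olfactory receptor level. ABCC1 libraries all lay above Puro for 24.7% of the features tested in RNA1 and 8.59% in RNA3. They all lay below for 25.7% in RNA1 and 16.4% in RNA2. How many features lay opposite ways in this manner was not counted. The differences from RNA1 were not tested, and per the study's methods the library kit of RNA1 differs.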

How the results depend on the processing

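The choice of both loci fixed the direction of their difference between lines, so its sign under the alternatives is no sign of stability. In RNA1, RNA2 and RNA3 the log2FC ranges were -1.56 to -1.50, -1.72 to -1.17 and -2.11 to -1.93 for AL445218.1. For AC012615.1 they were 0.64 to 0.73, 0.98 to 1.24 and 1.68 to 2.10, where the 2.10 came with the olfactory receptor level subtracted. The numbers of features called were less stable. In RNA2, where 581 were called, DESeq2 gave 2556, RLE scaling 1086 and no filter 1402, and leaving out 1 library gave 8 (without Puro replicate 3) to 1359 (without ABCC1 replicate 3). In RNA3, where 1021 were called, DESeq2 gave 1561 (1394 higher, 167 lower, beside 741 and 280), RLE scaling 966 higher and 199 lower, a minimum of 10 counts in every library 1725, and leaving out 1 library 394 (without ABCC1 replicate 3) to 2762 (without Puro replicate 2). In RNA2 a minimum of 10 counts turned the split from 425 higher and 156 lower to 350 and 438. Leaving out ABCC1 replicate 3 turned it as well, to 593 higher and 766 lower. With a replicate block RNA3 gave 1885. The replicate numbers did not pair the libraries, since 1 of 9 same-numbered pairs correlated above 0.1 (range -0.185 to 0.118) and 1 of 9 correlated best with its own number, and the block changed no call of a neighbour or of the loci between experiments. Between RNA3 and RNA2, library totals alone gave 15203 calls in Puro (13263 higher, 1940 lower, beside 749 and 5044) and 23207 in ABCC1 (21194 higher, 2013 lower, beside 7671 and 6588), with AC012615.1 in ABCC1 at -0.31, and RLE scaling gave 6227 higher and 8209 lower in ABCC1. Leaving out 1 library gave 9086 (without RNA3 ABCC1 replicate 1) to 16459 in ABCC1. Of tested neighbours within 50 kb of either locus, 2 of 6, 1 of 8 and 2 of 8 were called in RNA1, RNA2 and RNA3. Of all features, 37.6%, 1.70% and 2.80% were called there. A window of 500 kb gave 15 of 48, 1 of 65 and 4 of 68. Within 50 kb a minimum of 10 counts gave 0 in RNA2, and DESeq2 gave 1 in RNA3 (ADAT3 had no adjusted p there). Leaving out 1 library gave 2 to 3, 0 to 1 and 0 to 4 in RNA1, RNA2 and RNA3. Neighbours near no difference changed sign: REXO1 ranged from -0.15 to 0.021, ABHD17A from -0.037 to 0.10 and ADAT3 from -0.20 to 0.12 in RNA1 without 1 library (ADAT3 0.0038 with no filter), LINC01760 from -1.04 to 0.011 in RNA2 and -0.57 to 0.24 in RNA3, LINC01650 from -0.45 to 0.038 in RNA3, and SCAMP4 from -0.076 to 0.035 in RNA3 (0.0072 with DESeq2 and with RLE scaling). The causes were not tested. Calls of REXO1 and SCAMP4 in RNA1 appeared without ABCC1 replicate 3 (-0.15 and -0.24), and of REXO1 in RNA3 without Puro replicate 2 (0.45). LINC01760, with 1 to 37 counts per library in RNA2 and RNA3, had log2FC errors of 0.77 and 0.60 there. The parts of depth and of the spread between replicates were not separated.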
